A study of Danio rerio with 8 samples.

Results

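The genes of the cytosolic ribosomal proteins were taken by name. A gene belonged to the set when its deposited symbol began with *rpl*, *rps* or *rplp* followed by a digit, and the S6 kinases, whose symbols begin with *rps6k*, were left out. The rule gave 83 of 20409 genes (0.407%), and it used no measured value. By annotation 34 encode proteins of the small subunit and 47 proteins of the large subunit. The other 2 do not encode a ribosomal protein: *rps19bp1* encodes a protein that binds Rps19, and *rpl7l1* encodes a protein related to Rpl7. Ribosomal protein genes that carry other names (such as *faua*, *faub*, *rpsa* and *rack1*) fall outside the rule and are described separately.

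RNA was sequenced from whole zebrafish larvae at 4 dpf that carried the tp49d allele of *elipsa* (*traf3ip1*), a gene needed to build cilia. The 4 mutant libraries were made from homozygous (-/-) larvae picked by their downward curled tail. The 4 control libraries held wild-type and heterozygous (+/-) larvae of the same incrosses mixed together, so the controls also contained carriers of the allele. Each library was 1 tube of circa 30 pooled larvae, and each of 4 breedings of the same parental strain, here called clutches, gave 1 mutant and 1 control tube that were processed together and received no treatment. A clutch and the RNA preparation of its tubes therefore cannot be told apart.

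Each ribosome joins a small subunit, which holds the mRNA and reads its codons, to a large subunit, which forms the peptide bonds and releases the growing chain through a tunnel. Cells need the ribosomal proteins in matched amounts, and their mRNAs are among the most abundant in growing tissues. In vertebrates these mRNAs carry a terminal oligopyrimidine (TOP) tract that ties their translation to TOR signalling, and loss of single ribosomal proteins is known to cause Diamond-Blackfan anaemia in humans.

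All values are the authors' log2 CPM, which are not divided by gene length, so levels of different genes also reflect their length. Levels were compared between genes only for cutoffs of the mean and to choose genes to name. The depth of the libraries is unknown, and their sorted values were nearly identical, so every difference is relative to the other genes of the same library. In whole larvae, fewer cells of a type and less RNA per cell cannot be told apart. The targeted gene *traf3ip1* had values of 2.36, 1.88, 1.61 and 2.09 in the mutant libraries of clutches 1 to 4, against 3.03, 2.63, 2.81 and 2.78 in the control libraries, and no mutant value reached a control value. All 16 photoreceptor markers were lower on average. For 15 of them every mutant library was below every control library, beside 682 of all 20409 genes. In the fit that does not pair the tubes of a clutch, 14 of the 16 markers were called lower, beside 237 of all genes. Their summed linear CPM was 1581 to 1705 in mutants and 5206 to 10890 in controls. All 24 measured exocrine pancreas markers were lower on average, with sums of 704 to 3734 in mutants and 1295 to 7501 in controls, and all 14 enterocyte markers were lower on average, with sums of 932 to 1706 in mutants and 1129 to 3804 in controls. With the tubes of a clutch paired in the fit, 21 and 11 of these markers passed as lower, beside 1605 of all 20409 genes. Summed epidermis markers were 23062 to 25413 in mutants and 17635 to 23498 in controls. Of these 13 markers 10 were higher and 3 lower on average, with differences of -0.67 to 0.71. With the tubes paired, 3 passed as higher and 1 as lower, beside 1322 and 1605 of all genes. For 1 epidermis marker every mutant library was below every control library, and for 0 above, beside 682 and 724 of all genes. Of 14 measured erythrocyte markers 13 were higher on average, with a median difference of 0.24. In the fit that pairs the tubes of a clutch 8 of them passed as higher, beside 6.48% of all genes. The sums of these markers were 1425 to 3952 in mutants and 1102 to 3545 in controls. No mean of any of these markers was at the lowest value of the libraries. Without the pairing no pancreas, enterocyte, epidermis or erythrocyte marker was called, beside 1.52% of all genes. At an unadjusted p under 0.05 (limma, without the pairing) there were 0, 6, 4 and 0 of them, beside 12% of all genes. The part of these tissues in the results on ribosomal protein genes was not tested.

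The ribosomal protein genes were high and steady in every library. Of the 83 genes, 65 had a mean log2 value of at least 8, and 13 of the 85 genes with a mean of at least 10 were members. Their linear values made up 5.24%, 5.30%, 5.16% and 5.31% of the summed CPM in the mutant libraries of clutches 1 to 4, and 4.76%, 5.46%, 4.74% and 5.09% in the control libraries. The control libraries of clutches 1 and 3 had the smallest shares and that of clutch 2 the largest, so the mutant values lay inside the range of the controls. The residual SD within genotypes had a median of 0.0935 over the members. It was 0.200 over all genes and 0.153 over the 423 other genes with a mean of at least 8.

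**Figure D1:**
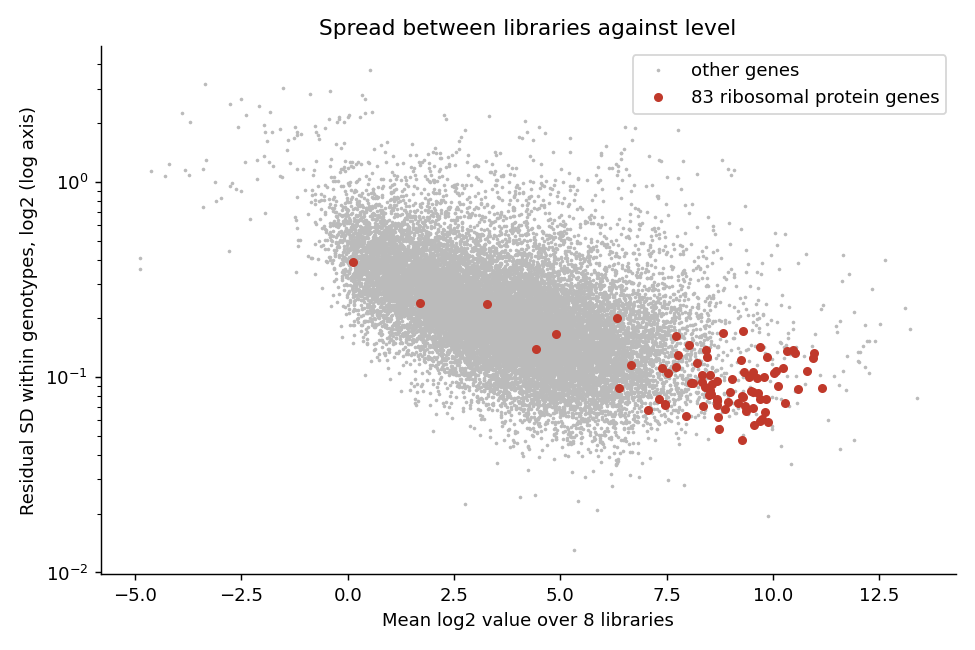
Residual SD within genotypes (log2, log axis) against the mean log2 value over 8 libraries, with 1 point per gene. Genes with a residual SD of practically 0 are not drawn. Most of the 83 ribosomal protein genes (red) sit at the right and low in the cloud of other genes (grey).

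Mutants and controls were first compared by limma over all 20409 genes without a term for the clutch. No ribosomal protein gene passed the threshold, an adjusted p under 0.1, whereas 1.52% of all genes were called. The lowest adjusted p of a member was 0.234. At an unadjusted p under 0.05 there were 8 members, among them *rpl31*, *rpl39*, *rps3*, *rps15*, *rps26* and *rps26l*, which is 9.64% of the set. All 8 were higher in mutants. Over all genes 12% passed that cutoff in either direction, and the share that passed as higher was not counted. The differences of the members ranged from -0.06 for *rpl22l1* to 0.26 for *rpl31*, on the log2 scale of mutants minus controls. Their median was 0.07, beside 0.03 over all genes and 0.05 over the other highly expressed genes. The difference was positive for 73 members and negative for 10. It was positive for 11764 and negative for 8645 of all genes, and for 264 and 159 of the other highly expressed genes. The split of the members depended on the scaling. It was 57 to 26 when each library was re-centred on the other highly expressed genes and 77 to 6 when re-centred on 35 housekeeping genes.

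The intervals show how large a change these libraries leave room for. The 95% interval of the difference lay within 0.5 of 0 on either side for 79 of the 83 members. The exceptions were the weakly measured *rpl27a*, *rps8b* and *rps27l* and, by its upper bound of 0.52, *rpl31*. The widest interval was that of *rpl27a*, from -0.60 to 0.62. Among all intervals the highest upper bound was 0.63, for *rps8b*. An adjusted p above the threshold does not show that a gene was equal in both genotypes.

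**Figure D2:**
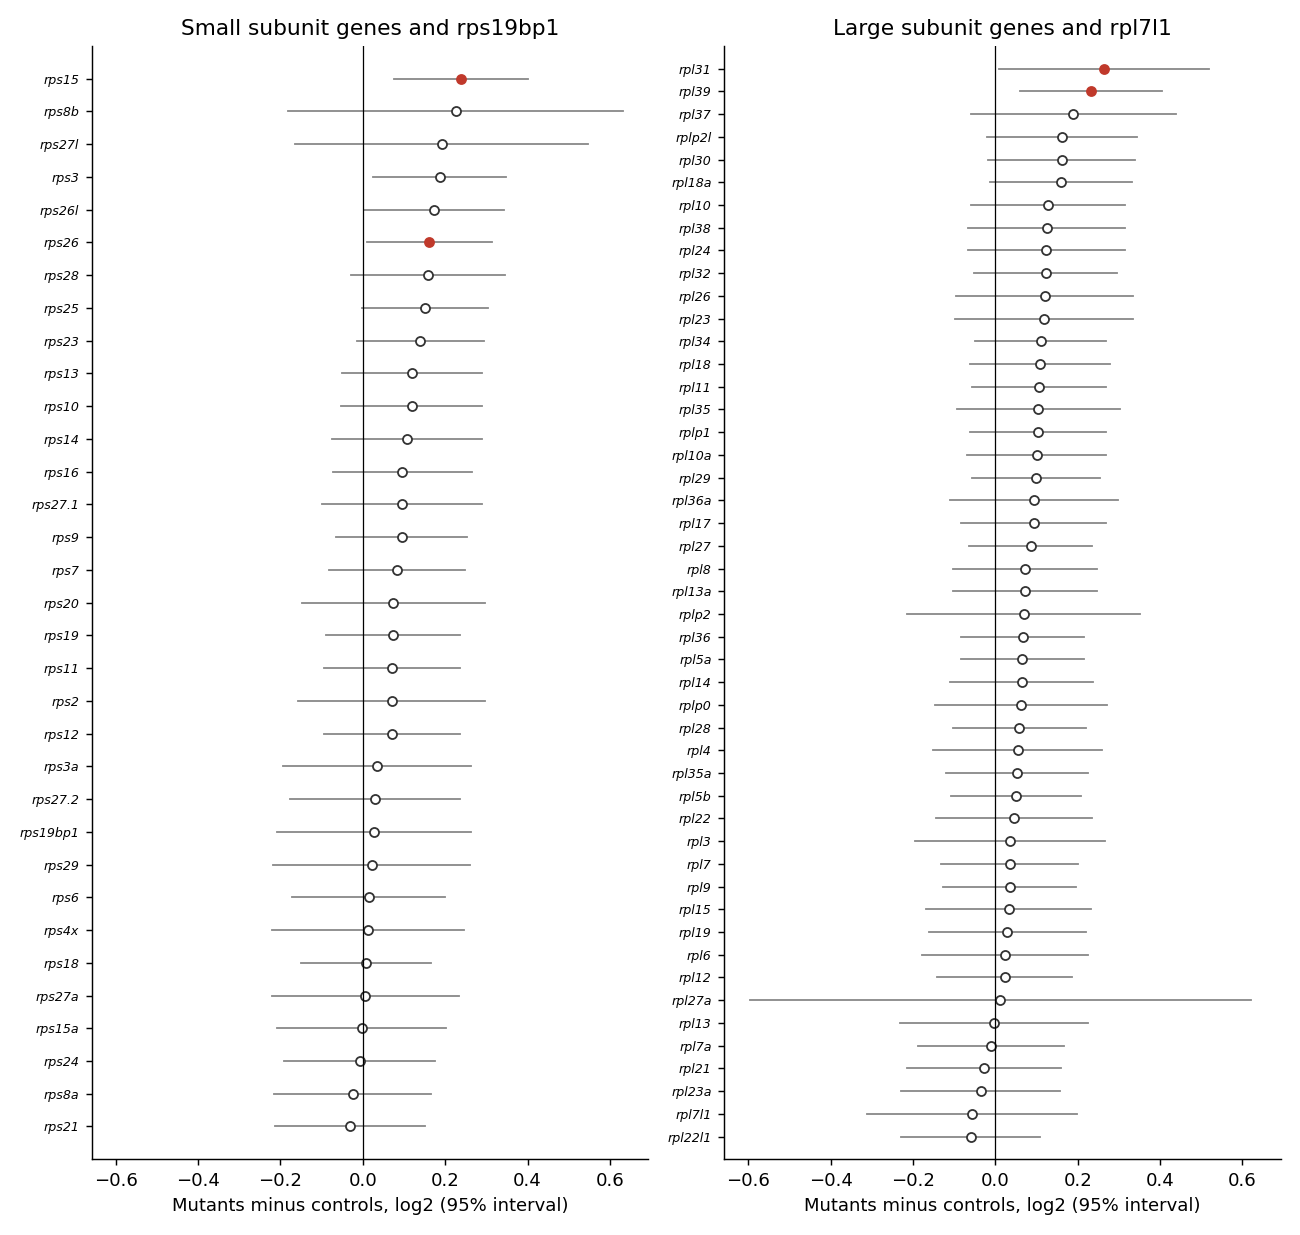
Log2 difference of mutants minus controls for the ribosomal protein genes reported by name, with its 95% interval from the fit without a clutch term. Filled red points mark the 4 genes called at an adjusted p under 0.1 with clutch as a block. Points run from -0.06 to 0.26, and most lie to the right of 0.

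With clutch as a block, so that each mutant tube was set against the control tube of its own clutch, limma called 4 members (4.82%), all higher in mutants: *rpl31*, *rps15*, *rpl39* and *rps26*. Of all genes 14.3% were called in this fit, and 6.48% were called higher. Of the 423 other highly expressed genes 22.9% were called in either direction. The 4 genes encode 2 proteins at the exit of the peptide tunnel and 2 proteins of the small subunit.

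*rpl31*, whose protein sits at the rim of the tunnel exit, had values of 9.41, 9.61, 9.22 and 9.43 in the mutant libraries of clutches 1 to 4, against 9.20, 9.30, 8.88 and 9.23 in the control libraries. The groups overlapped across clutches, since the mutant of clutch 3 was below 2 controls, but the mutant was higher in every clutch, by 0.20 to 0.33. The difference was 0.26 ± 0.05 (block SE, n = 4 pairs, limma adjusted p = 0.0206), and without the block the adjusted p was 0.405. In a RefSeq table of another build its span overlaps *tbc1d8* and a long non-coding RNA gene.

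*rps15*, a small subunit protein near the decoding centre, had values of 8.75, 8.87, 8.85 and 8.78 in mutants, against 8.53, 8.63, 8.47 and 8.67 in controls. All 4 mutant libraries were above all 4 control libraries. The difference was 0.24 ± 0.06 (block SE, limma adjusted p = 0.0405), and without the block the adjusted p was 0.234.

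*rpl39*, which encodes a small protein lining the tunnel, had values of 8.24, 8.07, 8.20 and 8.25 in mutants, against 7.89, 7.99, 7.86 and 8.09 in controls. The mutant of clutch 2 was below the control of clutch 4, and the mutant was the higher tube in all 4 clutches, by 0.09 to 0.35. The difference was 0.23 ± 0.06 (block SE, limma adjusted p = 0.0524), and without the block the adjusted p was 0.276. In the RefSeq table its span overlaps *sowahd*.

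*rps26*, a protein beside the path by which mRNA leaves the small subunit, had values of 7.19, 7.15, 7.08 and 7.19 in mutants, against 6.92, 7.02, 6.93 and 7.09 in controls. Here too the groups overlapped by 1 library, the mutant of clutch 3, and the mutant was the higher tube in all clutches, by 0.10 to 0.27. The difference was 0.16 ± 0.05 (block SE, limma adjusted p = 0.0984), and without the block the adjusted p was 0.395. Its copy *rps26l* had values of 8.47, 8.42, 8.52 and 8.53 in mutants, against 8.26, 8.28, 8.22 and 8.48 in controls, a difference of 0.17 with a block-adjusted p of 0.101 (limma). Reads of the copies may be shared between them, so each value is uncertain as to the gene.

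The number of calls depended on the clutches and on the scaling. Without clutch 3 no member was called with the block, beside 1289 of all genes. Without clutch 1 or clutch 4 there were 2 in each case, beside 2879 and 1466 of all genes. Without clutch 2 there were 6, beside 1584 of all genes. On the scale re-centred on the other highly expressed genes only *rpl31* (limma adjusted p = 0.0338) and *rps15* (0.0767) were called with the block. There *rpl39* (0.120) and *rps26* (0.257) were not called, and 2790 of all genes were.

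**Figure D3:**
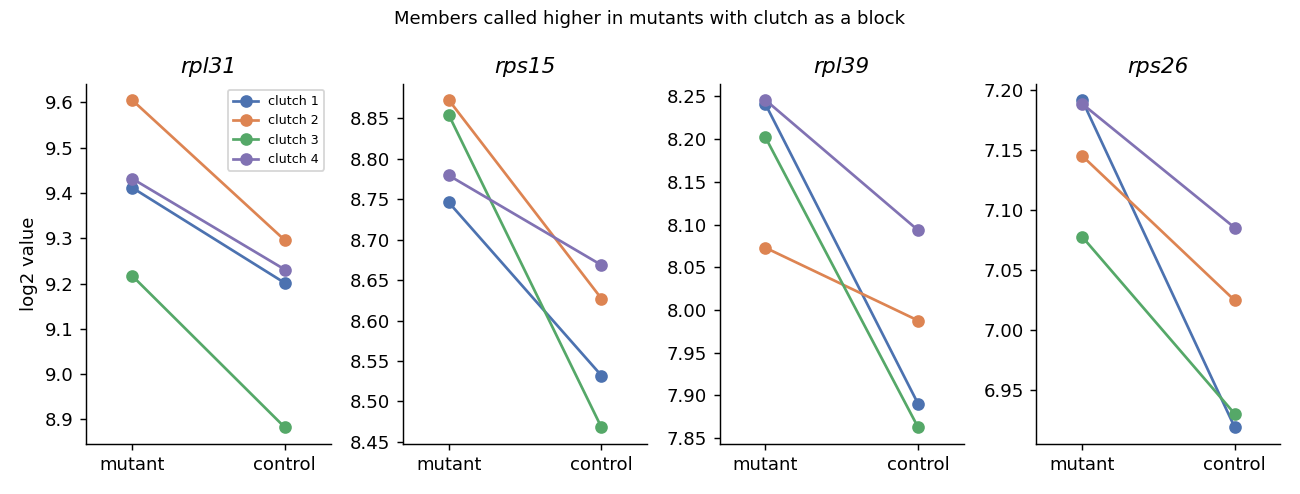
Log2 values of *rpl31*, *rps15*, *rpl39* and *rps26* in each mutant library (left) and the control library of the same clutch (right), joined by a line per clutch. The mutant point is the higher one on every line, and the vertical axes differ between panels.

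All 4 mutant libraries were above all 4 control libraries for 5 members (6.02%), against 3.55% of all genes and 5.2% of the other highly expressed genes. All 5 encode small subunit proteins, and they include *rps3*, *rps15* and *rps23*. Rps3 lines the mRNA entry, and *rps3* had values of 9.99, 9.90, 9.96 and 10.03 in mutants, against 9.75, 9.88, 9.77 and 9.74 in controls. The gap between the groups was narrow, because the control of clutch 2 was close to the mutants. *rps23*, which encodes a protein of the decoding centre, had values of 7.51, 7.49, 7.58 and 7.55 in mutants, against 7.27, 7.46, 7.36 and 7.47 in controls. Neither *rps3* nor *rps23* was called, with block-adjusted p-values from limma of 0.111 and 0.164. With libraries re-centred on the housekeeping genes, *rps3* was called with the block as well (limma adjusted p = 0.0908).

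The mutant was the higher tube in all 4 clutches for 24 members (28.9%), against 18% of all genes and 26% of the other highly expressed genes. The mutant was the lower tube in all 4 for no member, against 2940 of all 20409 genes and 58 of the 423 other highly expressed genes. Of these 24 genes 12 belong to the small subunit and 12 to the large. Among them the smallest differences were those of *rpl28* (0.06), *rpl36* (0.07) and *rps12* (0.07), and the largest those of *rpl31*, *rps15* and *rpl39*.

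The size of the difference varied between clutches. Within clutches 1 to 4 the median difference of the members, mutant minus control, was 0.17, -0.03, 0.14 and 0.05, and it was positive for 81, 34, 77 and 57 members. The medians over all genes were 0.02, 0.04, 0.03 and 0.01. The median of the members was thus above that of all genes in clutches 1, 3 and 4 and below it in clutch 2. With 1 tube per genotype in a clutch, a difference between clutches in the effect of the genotype could not be tested.

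Read by library, the spread came mostly from the controls. The median deviation of the members from their own means was 0.05, 0.06, 0.01 and 0.05 in the mutant libraries of clutches 1 to 4. It was -0.12, 0.08, -0.11 and 0.00 in the control libraries. Of the 83 members, 64, 64, 47 and 59 were above their own mean in the mutant libraries, against 6, 70, 5 and 43 in the control libraries. The control tubes of clutches 1 and 3 were low for nearly every member and that of clutch 2 was high, while the 4 mutant tubes lay close together.

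The members of both subunits moved together in this way. In the control tube of clutch 1 the median deviation was -0.13 for the small subunit and -0.12 for the large, and in that of clutch 2 it was 0.08 and 0.07. Over the 8 libraries, which all members share, the median Pearson correlation of 3403 pairs of members was 0.55, and 92.4% of pairs were positive. This is a description of 8 libraries and has no test.

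**Figure D4:**
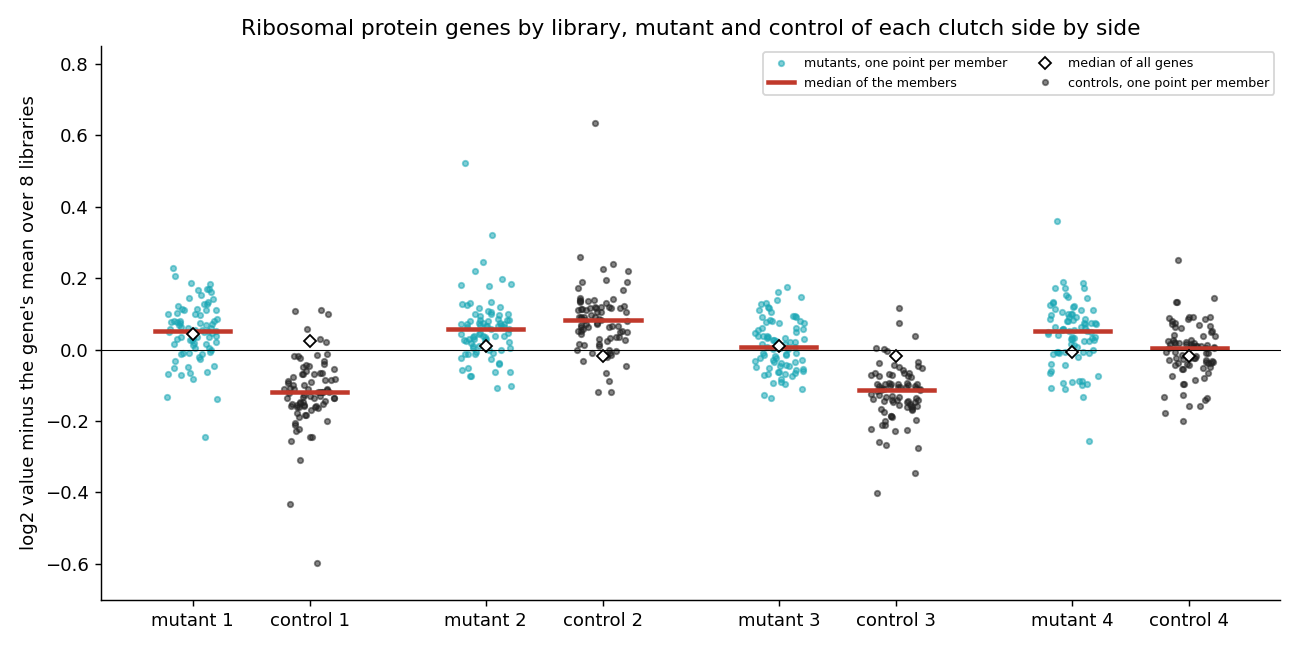
Deviation of each of the 83 genes from its own mean over 8 libraries (log2, vertical axis), with mutant (cyan) and control (black) of each clutch side by side. Red bars are medians of the ribosomal protein genes and diamonds medians of all genes. The control libraries of clutches 1 and 3 have their red bars at -0.12 and -0.11, and the diamonds stay near 0.

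The members were then taken by their place and role in the ribosome, and their calls with the block stand beside the 14.3% of all genes. Their signs stand beside the 73 positive differences among the 83 members, and their medians beside the median of 0.07 over all members. These groups were chosen with earlier results of these data known. Of 7 genes for proteins along the mRNA path of the small subunit, *rps2*, *rps3*, *rps14*, *rps26*, *rps26l* and *rps28* among them, all had a positive difference, with a median of 0.16, and 1 was called with the block. *rps2*, which encodes a protein of the mRNA entry, had values of 10.88, 10.99, 10.95 and 11.12 in mutants, against 10.79, 11.08, 10.79 and 10.99 in controls. *rps14* had values of 9.06, 9.07, 9.07 and 9.14 in mutants, against 8.88, 9.16, 8.88 and 8.99 in controls. For both genes the groups overlapped.

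Of 8 genes for proteins in the peptide tunnel or at its exit, 7 had a positive difference, with a median of 0.10, and 2 were called with the block (*rpl31* and *rpl39*). The exception was *rpl23a* (-0.04), whose protein helps to dock the signal recognition particle. Of 4 genes of the stalk, which recruits the elongation factors, none was called. *rplp0*, the base of the stalk, had values of 10.79, 10.83, 10.91 and 10.79 in mutants, against 10.59, 10.88, 10.72 and 10.88 in controls. *rplp1* had values of 9.57, 9.54, 9.59 and 9.64 in mutants, against 9.37, 9.52, 9.46 and 9.58 in controls. The groups overlapped for both.

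The 5S ribonucleoprotein, made of Rpl5, Rpl11 and 5S RNA, binds Mdm2 when ribosome assembly fails and so stabilizes p53. Its genes had small differences: 0.07 for *rpl5a*, 0.05 for *rpl5b* and 0.11 for *rpl11*. *rpl5a* had values of 9.32, 9.27, 9.30 and 9.33 in mutants, against 9.16, 9.31, 9.23 and 9.27 in controls, and the control of clutch 2 lay among the mutants. Of 27 p53 target genes none was called without the block (1.52% of all genes). There 1 had an unadjusted p under 0.05 by limma (12% of all genes). With the block 1 was called higher (6.48% of all genes), the pro-apoptotic *bbc3* (0.61, limma adjusted p = 0.0505). *mdm2* differed by 0.16 (limma adjusted p = 0.255 with the block).

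Of 22 members whose human counterparts are mutated in Diamond-Blackfan anaemia, 20 had a positive difference, with a median of 0.09, beside 73 of all 83 members. With the block 2 of the 22 were called (*rps26* and *rpl31*), beside 14.3% of all genes. *rps19*, the gene mutated most often in that disease, had values of 8.76, 8.76, 8.70 and 8.68 in mutants, against 8.64, 8.77, 8.53 and 8.66 in controls, a difference of 0.07 with a 95% interval of -0.09 to 0.24. *rpl35a* differed by 0.05 and *rps24* by -0.01. *rps6*, the substrate of S6 kinase downstream of TOR, had values of 10.13, 10.13, 10.07 and 10.20 in mutants, against 10.07, 10.26, 9.99 and 10.15 in controls, a difference of 0.01 with an interval of -0.17 to 0.20. For neither *rps19* nor *rps6* did the groups separate.

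Several members have paralogs among the 83 genes. *rpl22* differed by 0.04 and its paralog *rpl22l1* by -0.06, and their intervals of -0.14 to 0.23 and of -0.23 to 0.11 both include 0. *rps8a* differed by -0.02 and *rps8b* by 0.23, but *rps8b* had values between 1.35 and 2.22 and an interval of -0.18 to 0.63. *rplp2* differed by 0.07 and *rplp2l*, which RefSeq now calls *rplp2b*, by 0.16. The 3 genes *rps27.1*, *rps27.2* and *rps27l* differed by 0.10, 0.03 and 0.19, and none was called. The difference between copies was itself not tested, and reads that match more than 1 copy may have been divided among them.

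The least precise member was *rpl27a*. Its deposited entry carries no Ensembl identifier, and whether it collects the reads of the main *rpl27a* gene is uncertain. It had values of -0.12, 0.31, 0.13 and 0.20 in mutants, against -0.47, 0.76, 0.24 and -0.05 in controls. The controls spanned more than 1 log2 unit and the mutants lay inside their range. The 2 genes of the rule that encode no ribosomal protein did not stand out: *rps19bp1* differed by 0.03 and *rpl7l1* by -0.06, and neither was called.

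Members that host small nucleolar RNAs in their introns were looked at because those RNAs guide the modification of ribosomal RNA. According to RefSeq there are 20 host members with 53 such entries. Their median difference was 0.07, and that of the other 63 members was 0.09. Of the hosts 1 was called with the block, and of the others 3, beside 14.3% of all genes.

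Between clutches few ribosomal protein genes were called, but by the mean of both tubes most shifted together in clutches 2 and 3. Against the mean of the other clutches, 75 members had a positive difference and 8 a negative one in clutch 2. In clutch 3 the difference was positive for 9 members and negative for 74. A small number of calls therefore does not show that the members were equal between clutches. An F test of the clutch terms with genotype in the fit (limma) called 5 members (6.02%): *rpl31* (adjusted p = 0.0351), *rplp2* (0.0407), *rps20* (0.0449), *rpl23* (0.0896) and *rpl3* (0.0982). Of all genes 26% were called, and of the other highly expressed genes 45.4%. The share of members called moved with the test: it was 0 without the genotype term, where 2.83% of all genes were called, and 0 without the trend, where 13.4% of all genes were called. Leaving out single libraries gave 0 members (without the control of clutch 3, 14.9% of all genes) to 8 (without the mutant of clutch 2, 23.3%). Leaving out clutch 1 gave 1 member, beside 5.31% of all genes. At an unadjusted p under 0.05 from the F test there were 7 members. All genes were not counted at that cutoff, so the number has no background beside it.

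Each clutch was then set against the mean of the other 3. In clutch 1 limma called 4 members, all lower, beside 26.9% of all genes. *rps20* had values of 7.89 (mutant) and 7.77 (control) in clutch 1, against 8.14, 8.05 and 8.14 in the other mutants and 8.13, 7.92 and 8.10 in the other controls. Both tubes of clutch 1 were below all others, and the difference was -0.25 ± 0.06 (SE, adjusted p = 0.0194). *rpl3*, which encodes a protein at the peptidyl transferase centre, had values of 10.33 and 10.23 in clutch 1, against 10.60, 10.48 and 10.55 in the other mutants and 10.56, 10.48 and 10.55 in the other controls. Here too both tubes of clutch 1 were the lowest, and the difference was -0.25 ± 0.07 (SE, limma adjusted p = 0.0356). The others were *rplp2* (-0.26, adjusted p = 0.0428) and *rps3a* (-0.20, adjusted p = 0.0970).

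In clutch 2 no member was called by limma, beside 4.46% of all genes. At an unadjusted p under 0.05 (limma) there were 8 members in clutch 2, a cutoff at which all genes were not counted. With robust moderation 1 member was called there. In clutch 3 the only member called was *rpl31*, which was lower by -0.31 ± 0.06 (SE, limma adjusted p = 0.0651), beside 2.09% of all genes. It had values of 9.22 (mutant) and 8.88 (control) in clutch 3, and the lowest of the other 6 libraries was the control of clutch 1 at 9.20. The mutant of clutch 3 therefore overlapped with the other clutches and its control did not.

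In clutch 4 limma called 2 members, beside 15.4% of all genes. *rplp2*, a protein of the stalk, was higher, with values of 6.53 (mutant) and 6.59 (control) in clutch 4, against 6.26, 6.42 and 6.30 in the other mutants and 6.03, 6.45 and 6.16 in the other controls. Both tubes of clutch 4 were above all others (difference 0.29 ± 0.07, SE, limma adjusted p = 0.0463). *rpl7l1* was lower in clutch 4 (-0.26, limma adjusted p = 0.0931). Among the members with the lowest F statistics for the clutch were *rps3*, *rps25* and *rpl27*, all with adjusted p-values of at least 0.979.

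The median of the members in clutches 1 to 4, each against the other 3, was -0.04, 0.09, -0.08 and 0.03, and 24, 75, 9 and 54 members were positive. The medians over all genes were 0.043, -0.008, -0.002 and -0.012. By the mean of both tubes most members were thus higher in clutch 2 than in the other clutches and lower in clutch 3. In clutch 3 the median deviation of the members was -0.11 in the control tube and 0.01 in the mutant tube. In clutch 2 it was 0.08 in the control tube and 0.06 in the mutant tube, beside 0.05 in the mutant tubes of clutches 1 and 4. Markers of other tissues moved between clutches as well. The summed exocrine pancreas markers were lowest in clutch 1, at 704 in the mutant and 1295 in the control, against 3017 to 3734 in the other mutants and 5725 to 7501 in the other controls. The erythrocyte markers were highest in clutch 1, at 3952 and 3545, against 1425 to 1992 in the other mutants and 1102 to 1659 in the other controls. Of 24 measured pancreas markers 22 were called between clutches, and of 14 measured erythrocyte markers 14, beside 26% of all genes. The part of these tissues in the clutch differences of *rps20*, *rpl3*, *rplp2* and *rps3a* was not tested.

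Genes that act before the mature ribosome were called between clutches more often than the members, a contrast that was not itself tested. Of 138 measured ribosome biogenesis genes, which process ribosomal RNA and assemble the subunits, 92 (66.7%) were called by the F test, and of 13 measured genes of RNA polymerase I and its factors 10 (76.9%). The F test called 26% of all genes and 45.4% of the other highly expressed genes. The biogenesis genes had medians of 0.17, 0.27, -0.05 and -0.36 in clutches 1 to 4. In clutch 4, 88 of the 138 were called lower and none higher, and in clutches 1 and 2 there were 34 and 37 called higher and 2 and 0 called lower. Over all genes 15.4% were called in either direction in clutch 4, 26.9% in clutch 1 and 4.46% in clutch 2. The nucleolar methyltransferase gene *fbl* had values of 6.05 (mutant) and 6.04 (control) in clutch 4, against 6.55, 6.60 and 6.39 in the other mutants and 6.58, 6.77 and 6.38 in the other controls. The nucleolin gene *ncl* had values of 8.39 and 8.33 in clutch 4, against 8.84, 8.88 and 8.60 in the other mutants and 8.89, 8.79 and 8.55 in the other controls. In both genes the 2 tubes of clutch 4 were below all others. Between the genotypes none of the 138 was called with or without the block, and 1 had an unadjusted p under 0.05 without it (limma). Over all genes these shares were 14.3%, 1.52% and 12%.

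**Figure D5:**
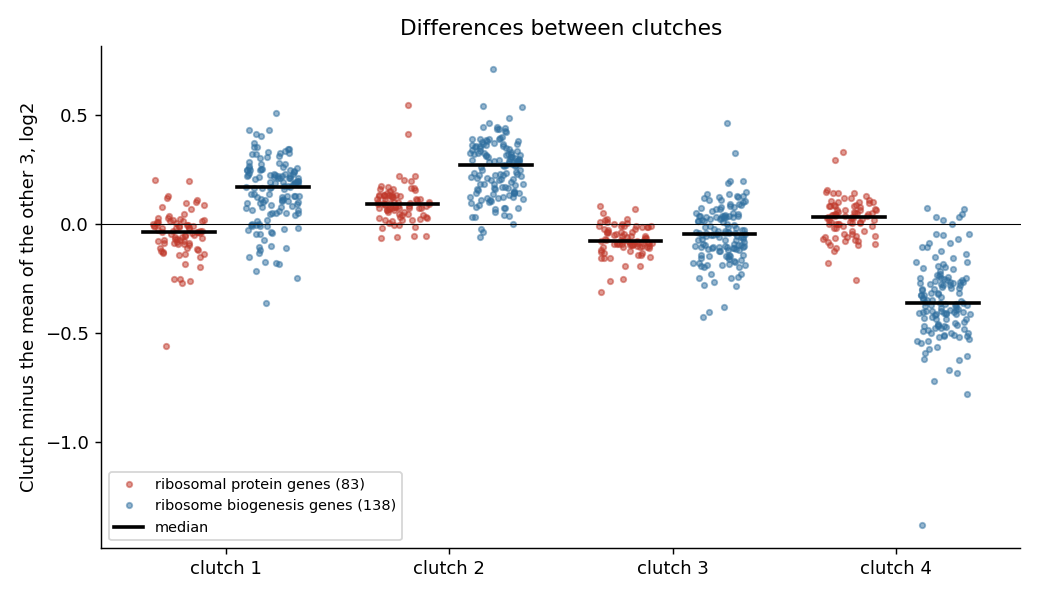
Log2 difference of each clutch from the mean of the other 3, with 1 point per gene, for the ribosomal protein genes (red) and the ribosome biogenesis genes (blue). Black bars are medians: they stay between -0.08 and 0.09 for the ribosomal protein genes and reach -0.36 in clutch 4 for the biogenesis genes.

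Of 5 measured ribosomal protein genes with names outside the rule, 2 had an unadjusted p under 0.05 without the block, and 1 was called higher and 1 lower with it. Over all genes 12% had such a p-value (limma), and 1322 and 1605 of 20409 were called higher and lower with the block. *rpsa*, *rack1* and *faua* differed by 0.16, 0.14 and 0.14 and were not called. *faub*, the second gene for a ubiquitin-like fusion with a small subunit protein, was lower, at 3.60 ± 0.25 in mutants and 4.03 ± 0.34 in controls (SD, n = 4 each), a difference of -0.43 (limma adjusted p = 0.0383 with the block, 0.399 without).

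Other genes of translation were set beside the members by lists. None of the lists named here had a gene called between the genotypes by limma without the block. Of 29 measured TOP genes of translation 4 had an unadjusted p under 0.05, and with the block 3 were called higher and 2 lower. The higher ones were *eef1db* (0.21), an elongation factor subunit, *eif5a* (0.18), which relieves stalled ribosomes, and the histone chaperone gene *nap1l1* (0.18). The lower ones were *eef1a1a* (-0.39) and *eef1a1b* (-0.37), which encode elongation factors that bring tRNA to the ribosome. Initiation factor genes were taken by name only (*eif* followed by a digit). The pattern also takes *eif5a*, and it can take other genes that are not initiation factors. Of these 63 genes 2 had an unadjusted p under 0.05, and with the block 4 were called higher and none lower. Over all genes these shares were 12% at an unadjusted p under 0.05 and 6.48% called higher with the block, and 1605 of 20409 genes were called lower.

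Of 75 mitochondrial ribosomal protein genes, whose products make the separate ribosome of that organelle, 56 had a negative difference (8645 of all 20409 genes), with a median of -0.07. With the block 1 was called higher and 4 lower, and 3 had an unadjusted p under 0.05 without it. Over all genes 1322 and 1605 of 20409 were called higher and lower with the block, and 12% had such a p-value without it. The F test called 7 of them between clutches (9.33%), beside 26% of all genes. Of 32 measured genes of the TOR pathway none had an unadjusted p under 0.05, and with the block 1 was called, *larp1* (-0.19, limma adjusted p = 0.0619), which binds TOP mRNAs. Of 30 proliferation genes 26 had a positive difference (11764 of all 20409 genes), with a median of 0.13. Within clutches 1 to 4 their median was 0.36, 0.20, 0.15 and -0.12, and 30, 26, 26 and 8 were positive. In clutch 4 most were thus lower in the mutant tube. With the block 6 of the 30 were called higher, beside 6.48% of all genes, and none lower. Without it 1 had an unadjusted p under 0.05 (limma). The part of proliferating cells in the differences of the ribosomal protein genes was not tested.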

How the data were processed

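Whole larvae of 4 mutant and 4 control tubes were measured by stranded RNA-seq. After SOAPnuke filtering, the authors mapped reads by HISAT2 and Bowtie2, used RSEM for gene counts, required an average CPM above 1 per gene and applied voom; the submitters' processing notes name the build GRCz11. The deposited values are log2 CPM of 20409 genes. Their sorted values were nearly identical between libraries, a step the sources used here do not name, and their linear sums were 997999 to 998008. Depth per library is therefore unknown, and intervals rest on the spread between libraries only. A second table deposited by the authors holds their own comparison (log2 difference, mean, statistic, p-values), of which only gene identifiers and symbols were used.

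The genotypes were compared in R 4.3.3 with limma 3.58.1 (trend, two-sided, 95% intervals), with Benjamini-Hochberg adjustment over all genes and a threshold of 0.1, as the methods of the study give. They name no clutch term, so the fit with clutch as a replicate block is an alternative. The clutch numbers pair the libraries: the labels give the clutch, and the correlation of the 2 libraries of a clutch, as deviations from their genotype means, was 0.640, 0.325, 0.334 and 0.458 in clutches 1 to 4. With that block limma called 4 members. Clutches were compared by a limma F test and by contrasts of each clutch against the other 3. All genes were kept, with no pseudocount. The code was tested on simulated data. P-values measure the spread between tubes of pooled larvae.

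The members and all gene lists were chosen with earlier results of these data known. Named genes were called members (up to 6 per direction), the 3 largest and 3 smallest differences of one sign in all clutches, the 4 highest and 4 lowest F statistics for the clutch, the 3 highest and 3 lowest levels, paralogs, members of fixed roles and members that are not ribosomal. *rps23*, *rps28*, *rpl23a*, *rps3a* and all non-members were named after their values were seen, as members of small counts or lists. Some genes are not reported here by name. All 83 members matched a RefSeq gene table of another build (82 under the same symbol), used for names, hosts and overlapping genes only, so no coordinates are given. Plots were made in Python 3.11.15 (matplotlib 3.10.9).

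Alternatives were the replicate block, no trend, robust moderation, vooma weights, library weights, a minimum mean of 1, a pseudocount of 1, re-centred libraries, an adjusted p under 0.05 and leaving out each library and each clutch.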

Additional observations from a re-analysis of the deposited data

Results flagged for a closer look

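In groups of 4 libraries, 5 of 92 sets of values had 1 library far from the other 3 by Dixon's criterion, which chance alone meets in about 1 in 20. *rps24* was 8.71 in the mutant of clutch 1, with the other mutants at 8.45 to 8.47, and 8.64 in the control of clutch 2, with the other controls at 8.48 to 8.50. *rps27a* was 9.90 in the mutant of clutch 1, with the other mutants at 9.61 to 9.65. *rps14* was 9.14 in the mutant of clutch 4, with the other mutants at 9.06 to 9.07. The median deviation of the members was 0.00789 in the mutant of clutch 3, with the other mutants at 0.0531 to 0.0576.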

How the results depend on the processing

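The number of members called between the genotypes was 0 without the replicate block. It became 4 with the block and 1 with library weights (*rps15*). Chosen after seeing the data, the block gave 5 with libraries re-centred on housekeeping genes, where 2822 of all genes were called. It gave 2 re-centred on the other highly expressed genes, where 2790 of all genes were called, and 2 at an adjusted p under 0.05. All genes were not counted at that cutoff or with library weights. The housekeeping shift was the median deviation of 35 genes from their own means. When it was instead the median of their values, also chosen after seeing the data, it moved the median of all genes by 0.121. The median of the members became 0.195 with and without the block. On this scale the block called 49 members, beside 6389 of all 20409 genes. By construction a median of the housekeeping values follows 1 gene, and the housekeeping genes themselves had a median difference of -0.01. Their differences relative to that shift are those of the deposited scale.

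The numbers of members called between clutches (5 by the F test, 4, 0, 1 and 2 in clutches 1 to 4) became 0 by the F test and 1 in clutch 1 and 0 in clutches 3 and 4 without the genotype term. Without the trend they were 0 by the F test and 0 in clutches 3 and 4. In clutch 2 there was 1 with robust moderation, with a mean of at least 1, and with adjustment over the 4 contrasts together, where clutch 4 had 1. Re-centred on housekeeping genes there were 3 by the F test, 0 in clutch 3 and 1 in clutch 4. By the median of their values there were 9, with 33 in clutch 1, 0 in clutch 3 and 4 in clutch 4. The F test called 23.8% of all genes on the first scale and 28.9% on the second. All genes were not counted by single clutch on these scales. Re-centred on highly expressed genes clutch 4 had 1. At an adjusted p under 0.05 there were 3 by the F test (15.6% of all genes), 0 in clutch 3 and 1 in clutch 4. Leaving out libraries or clutches gave 0 to 6 members between the genotypes (0 to 6 in the block fits, beside 1289 to 2879 of all genes). It gave 0 to 8 by the F test, beside 5.31% to 25.3% of all genes, and 0 to 6, 0 to 1, 0 to 2 and 0 to 2 in clutches 1 to 4. The causes were not tested.

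Of the 44 named members, 16 changed sign in some setting, all without a call. *rpl27a* was -0.0135 with library weights and -0.0089 with the pseudocount. Re-centred on housekeeping genes *rps24* was 0.0079, with and without the block, and by the median of their values *rps24*, *rps8a*, *rpl7l1* and *rpl22l1* were 0.114, 0.0964, 0.0653 and 0.0614. Re-centred on highly expressed genes, with and without the block, *rpl27a*, *rps4x*, *rpl6*, *rpl7*, *rps27.2*, *rps6*, *rps27a*, *rpl3* and *rps19bp1* were -0.0301, -0.0283, -0.0180, -0.0067, -0.0115, -0.0278, -0.0363, -0.0057 and -0.0144. Leaving out libraries or clutches gave ranges of -0.0623 to 0.0758 (*rps27a*), -0.0339 to 0.111 (*rps19bp1*), -0.185 to 0.225 (*rpl27a*), -0.0818 to 0.0535 (*rps24*), -0.0390 to 0.0883 (*rpl3*), -0.0798 to 0.0027 (*rps8a*), -0.138 to 0.0198 (*rpl7l1*), -0.0277 to 0.0629 (*rps6*), -0.0228 to 0.164 (*rplp2*), -0.0102 to 0.0685 (*rpl6*), -0.0407 to 0.0838 (*rps27.2*), -0.0362 to 0.109 (*rps4x*), -0.0232 to 0.0983 (*rpl22*) and -0.0120 to 0.0917 (*rpl35a*). The residual SD within genotypes of the weakly measured *rpl27a*, *rps8b* and *rps27l* was 0.388, 0.241 and 0.238, beside a median of 0.0935 over the members. The part of the unknown depth in this spread was not tested.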
